A study of Homo sapiens with 6 samples.

Results

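The 140 antisense RNAs described here were measured in A673 cells with and without the EWS-FLI1 fusion. All but 3 carry the name of another gene in these data. By annotation these lie across or beside that gene, on the opposite strand in all but 1 of the pairs that could be placed. A gene was taken as a member when its symbol ended in -AS, with or without a number, and its mean level reached 5 CPM (counts per 1000000 counts of the library) in the parental or in the knockout libraries. That left 140 of 1851 rows with such a name and of 62700 rows in all. Of these, 60 reached 5 CPM in both genotypes, 51 in the parental libraries only and 29 in the knockout libraries only. Each was set beside the gene named before -AS, called its sense gene: 136 were matched by symbol and 1, ZNF295-AS1, through an older name to ZBTB21. HOXB-AS1, HOXD-AS2 and TRD-AS1 have no gene of that name. Because the level chose the members, a member high in 1 genotype only had to differ between them, and the members' own differences are given as a description with no test.

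A673 is an established Ewing sarcoma line, and EWS-FLI1 is the fused transcription factor, made from EWSR1 and FLI1, that drives this tumour. The study compared 3 libraries of parental control cells, labelled EWS-FLI1 wildtype, with 3 libraries of EWS-FLI1 knockout cells. Both were grown in DMEM with fetal bovine serum, and the labels name no further agent. RNA with a poly(A) tail was enriched with oligo d(T) beads, so antisense RNA without a tail is poorly covered. How the knockout was made, whether it is 1 clone or a pool, and whether replicates are separate cultures cannot be read from the labels, so the p-values measure only the spread between these libraries.

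Antisense RNAs arise where both strands of a stretch of DNA are transcribed. Some start back to back with the sense gene from a shared promoter, some run into its 3′ end, and some lie within its introns. They are known to act on the sense gene by interfering with its transcription, by changing its chromatin or by pairing with its RNA, and many are products of bidirectional promoters that the nuclear exosome degrades. EWS-FLI1 binds the ETS core GGAA and, in Ewing sarcoma, turns on genes from long runs of GGAA repeats.

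The libraries held 301605666 to 342624492 estimated counts. Over all genes, 21015 of 28485 tested genes (73.8%) passed the edgeR quasi-likelihood test at an adjusted p of 0.05, 36.3% higher and 37.5% lower in the knockout libraries. This near balance rested on the scaling: 10328 rose and 10687 fell with trimmed mean (TMM) factors, 7370 rose and 14949 fell under total count scaling, and 8702 rose and 12780 fell under upper quartile scaling. With TMM factors the median log2 fold change of all genes was -0.06, and scaling by total count alone moved every gene by about the same amount, for a median shift of -0.42. All 10 Ewing sarcoma markers fell in the knockout libraries, among them the kinase gene PRKCB, at 388, 396 and 395 CPM in the 3 parental and 3.56, 3.28 and 3.53 CPM in the 3 knockout libraries. EWSR1 and FLI1 counts include reads of the fusion and of the intact alleles, so their log2 fold changes, -0.26 (SE 0.047, adjusted p = 3.81e-05) for EWSR1 and 0.38 (SE 0.050, adjusted p = 4.27e-07) for FLI1 by edgeR, do not check the knockout, and FLI1 turned to -0.04 under total count scaling. Of 13 markers of leukocytes, endothelium, epithelium and erythroid cells, 9 were tested, 4 rose and 2 fell. Their summed level was 2.34 to 2.82 CPM in parental and 10.4 to 11.1 CPM in knockout libraries, most of the latter PECAM1, at 0.151, 0.180 and 0.123 CPM in the 3 parental and 7.97, 8.73 and 7.98 CPM in the 3 knockout libraries. The leukocyte marker PTPRC reached 1.64 CPM at most, CD3E was at or near 0, and the part of such cells in the results below was not tested.

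Levels below are TMM-scaled CPM, with values in the order of replicates 1, 2 and 3. Fold changes, also written as log2 and a value in brackets, are log2 of knockout over parental from the edgeR fit, and adjusted p-values are edgeR's with Benjamini-Hochberg adjustment over all 28485 genes. The labels do not state that the reads kept their strand. Where an antisense RNA and its sense gene share exonic bases, their reads may therefore not be told apart, and the shared exonic bases were taken from GENCODE release 29 on GRCh38.

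Promoters are shown first, since the 2 strands of a pair can start from 1 stretch of DNA. The RefSeq promoter table (GRCh38.p14) gives 250 bases before to 50 bases after each start, and 93 pairs have such a window for both genes. In 15 of them the 2 windows overlap, with starts 1 to 462 bases apart. The windows of 3 such antisense RNAs are printed 5′ to 3′ on their own strand, with each GGAA or its reverse complement TTCC in capitals: a pair higher in the knockout libraries (HHIP-AS1, chr4:144645970-144646269, minus strand), a pair lower in them (ID2-AS1, chr2:8681814-8682113, minus strand), and the pair among the 15 whose 2 genes differed most (TRAM2-AS1, chr6:52576952-52577251, plus strand). These 3 and the 2 windows that follow were picked after the values were seen.
HHIP-AS1: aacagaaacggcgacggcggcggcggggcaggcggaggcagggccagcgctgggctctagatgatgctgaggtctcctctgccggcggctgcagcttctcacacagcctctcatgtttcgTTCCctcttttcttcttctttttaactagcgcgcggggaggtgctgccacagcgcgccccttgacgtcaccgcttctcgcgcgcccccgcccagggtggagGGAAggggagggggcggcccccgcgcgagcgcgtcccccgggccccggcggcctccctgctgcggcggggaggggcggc
ID2-AS1: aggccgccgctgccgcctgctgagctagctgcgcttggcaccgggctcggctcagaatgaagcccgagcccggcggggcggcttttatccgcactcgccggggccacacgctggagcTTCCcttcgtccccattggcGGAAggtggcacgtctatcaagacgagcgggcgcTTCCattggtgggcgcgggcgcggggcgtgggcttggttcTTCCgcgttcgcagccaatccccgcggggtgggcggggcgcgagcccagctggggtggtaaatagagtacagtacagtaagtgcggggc
TRAM2-AS1: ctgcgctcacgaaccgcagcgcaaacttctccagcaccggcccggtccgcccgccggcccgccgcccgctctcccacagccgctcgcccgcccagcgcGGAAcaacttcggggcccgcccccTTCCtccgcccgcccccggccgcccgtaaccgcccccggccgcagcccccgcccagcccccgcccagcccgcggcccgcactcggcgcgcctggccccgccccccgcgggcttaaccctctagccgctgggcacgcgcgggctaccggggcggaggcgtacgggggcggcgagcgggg
The HHIP-AS1 and HHIP windows share 236 bases, those of ID2-AS1 and ID2 292 bases, and those of TRAM2-AS1 and TRAM2 241 bases. The first RefSeq window listed for each gene was used. In GENCODE the starts lie further apart, at 15336 bases for the HHIP pair and 3018 bases for the ID2 pair. The same holds for the PCBP1-AS1 (15766 bases) and WNT5A-AS1 (2840 bases) pairs. These pairs are not counted among those below that start within 1000 bases of each other.

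The core GGAA, searched on both strands, is common: 95.52% of 27305 RefSeq promoter windows and 98 of 107 member windows (91.59%) hold it. The directly repeated core GGAAGGAA, or TTCCTTCC on the other strand, is in 3.582% of all windows and in 3 of the 107 member windows, those of BAZ2B-AS1, BSG-AS1 and DLGAP1-AS2. All 3 of these antisense RNAs had log2 fold changes under -1, as did 21 of the 107 members with a window, and none of the 26 members above 1 held it. This split by direction was noticed after the values were seen, and the same levels chose the members, so nothing is read from it. The repeat was in 2.804% of member windows, no more often than in all windows. A match is not a binding site, and this short repeat is not a long run of repeats. The windows of BSG-AS1 (chr19:572199-572498, minus strand) and DLGAP1-AS2 (chr18:3603487-3603786, plus strand) are shown for it, with the single and repeated cores in capitals.
BSG-AS1: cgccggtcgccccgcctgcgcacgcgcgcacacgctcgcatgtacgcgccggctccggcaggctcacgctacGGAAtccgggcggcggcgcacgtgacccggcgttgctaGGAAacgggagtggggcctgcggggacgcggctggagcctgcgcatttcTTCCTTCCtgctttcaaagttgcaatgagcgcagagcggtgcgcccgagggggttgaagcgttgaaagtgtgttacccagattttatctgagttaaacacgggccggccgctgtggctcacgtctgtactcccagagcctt
DLGAP1-AS2: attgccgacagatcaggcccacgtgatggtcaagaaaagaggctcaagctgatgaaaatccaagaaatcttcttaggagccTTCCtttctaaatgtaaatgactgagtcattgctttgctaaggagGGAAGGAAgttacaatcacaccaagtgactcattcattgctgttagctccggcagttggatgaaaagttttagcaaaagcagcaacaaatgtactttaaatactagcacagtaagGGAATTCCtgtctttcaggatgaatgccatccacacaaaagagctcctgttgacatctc
BSG-AS1, whose RefSeq start lies 965 bases from that of the transmembrane glycoprotein gene BSG, stood at 17.3, 15.9 and 15.8 CPM in the 3 parental and 3.50, 4.01 and 3.70 CPM in the 3 knockout libraries, a log2 fold change of -2.13 (SE 0.069). BSG itself was at a log2 fold change of 0.35 (SE 0.050, adjusted p = 1.7e-06) and was one of the sense genes whose direction turned under total count scaling (-0.07). BAZ2B-AS1 had a log2 fold change of -1.22 (SE 0.073), beside -0.24 (SE 0.058, adjusted p = 0.00112) for BAZ2B, a chromatin reader gene.

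Among the 15 pairs with overlapping windows, 11 moved in the same direction (7 higher and 4 lower in the knockout libraries) and 4 in opposite directions, and in 12 the 2 log2 fold changes lay within 1 of each other. Over all 136 pairs with both genes tested, 98 (72.1%) moved in the same direction and 78 lay within 1. The 15 pairs were not tested against the others. HHIP-AS1 stood at 0.150, 0.183 and 0.143 CPM in the 3 parental and 10.4, 10.2 and 10.2 CPM in the 3 knockout libraries. HHIP, which encodes a hedgehog-binding inhibitor of that pathway, stood at 0.462, 0.434 and 0.421 CPM in the 3 parental and 65.1, 62.7 and 58.6 CPM in the 3 knockout libraries, and both were near 0 in the parental cells. ID2-AS1 went the other way, at 21.8, 22.2 and 23.1 CPM in the 3 parental and 0.786, 0.996 and 1.06 CPM in the 3 knockout libraries. The sense gene ID2, an inhibitor of helix-loop-helix transcription factors, fell, at a log2 fold change of -4.69 (SE 0.056, adjusted p = 1.66e-25), beside -4.56 (SE 0.087) for ID2-AS1. The ID2-AS1 counts were 8.33, 8.39 and 8.87% in parental and 7.67, 9.46 and 10.9% in knockout libraries of the ID2 counts, with overlapping groups. TRAM2-AS1 shared a start region but not the size of the change, at 4.75, 4.95 and 4.90 CPM in the 3 parental and 12.5, 12.3 and 11.5 CPM in the 3 knockout libraries. TRAM2, a gene linked to collagen synthesis, rose much further, from 24.6 ± 0.44 to 1113 ± 68 CPM (mean ± SD, n = 3), and no exonic base is shared.

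**Figure D1:**
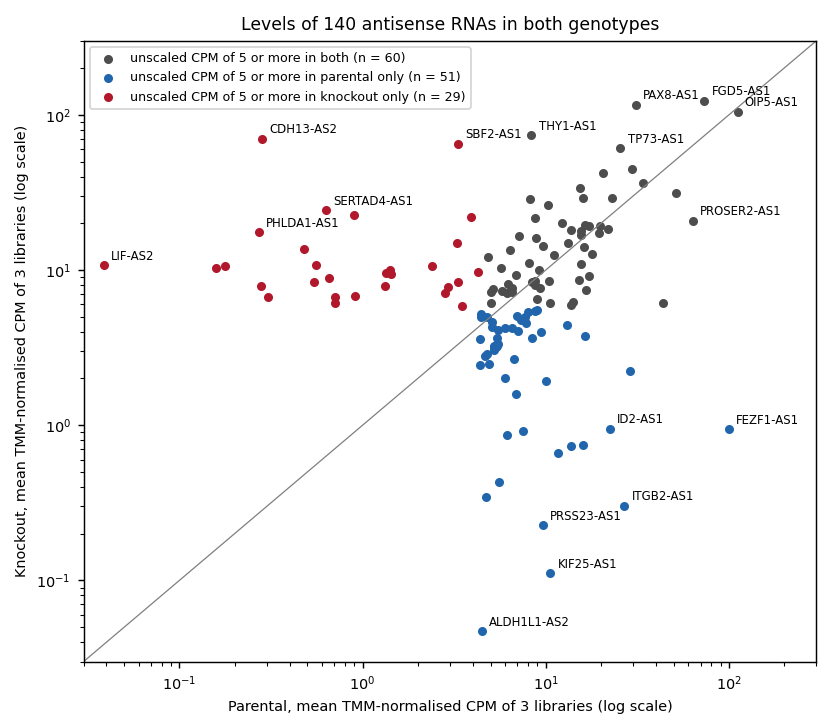
Mean level of each of the 140 antisense RNAs in knockout (y axis) against parental libraries (x axis), in TMM-scaled CPM on log axes, coloured by the genotype in which it reached the level that made it a member. FEZF1-AS1 lies far below the diagonal and LIF-AS2 and CDH13-AS2 far above it, while OIP5-AS1 lies on it.

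Over all members, 39 had a log2 fold change above 1, 27 under -1 and 74 in between, where 22.1% of all tested genes were above 1 and 20.8% under -1. The level of 129 members did not overlap between the genotypes, against 76.7% of all tested genes. Nothing is read from these shares, since the rule used the same libraries. The balance of directions rested on the scaling: 70 members were above 0 and 70 below with TMM factors, and 51 above and 89 below under total count scaling. Just inside the limit of 5 unscaled CPM lay PAXBP1-AS1 (5.04 in parental), SNAI3-AS1 (5.07 in knockout) and URB1-AS1 (5.09 in parental libraries). Just outside it lay PSMG3-AS1 (4.998), UGDH-AS1 (4.97) and PPM1F-AS1 (4.97), each in parental libraries.

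The antisense RNAs with the largest losses in the knockout libraries were mostly beside sense genes that fell as well, in 10 of the 12 largest. FEZF1-AS1 (chr7:122303658-122310077, plus strand), within the span of the forebrain transcription factor gene FEZF1, stood at 103, 94.0 and 101 CPM in the 3 parental and 0.960, 0.892 and 0.982 CPM in the 3 knockout libraries. FEZF1 stood at 72.2, 67.1 and 67.7 CPM in the 3 parental and 0.723, 0.497 and 0.633 CPM in the 3 knockout libraries, and the log2 fold changes were -6.72 (SE 0.070) for FEZF1-AS1 and -6.80 (SE 0.092, adjusted p = 1.59e-20) for FEZF1. The 2 groups were far apart for both genes, and 611 of its 3313 exonic bases were shared with exons of FEZF1.

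ALDH1L1-AS2, beside a folate enzyme gene, stood at 4.72, 4.36 and 4.39 CPM in the 3 parental and 0.0454, 0.0492 and 0.0472 CPM in the 3 knockout libraries, with a log2 fold change of -6.53 (SE 0.15) against -6.52 for ALDH1L1. ITGB2-AS1, inside the leukocyte integrin gene ITGB2, stood at 28.1, 25.6 and 26.9 CPM in the 3 parental and 0.303, 0.288 and 0.316 CPM in the 3 knockout libraries, with a log2 fold change of -6.46 (SE 0.083) against -6.04 for ITGB2. CPB2-AS1, which spans the carboxypeptidase gene CPB2 without sharing an exonic base, had a log2 fold change of -4.42 (SE 0.080) against -5.44 for CPB2. In these 3 pairs both genes were under 1 CPM in the knockout cells, and all 3 sense genes passed the test.

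HAND2-AS1, which starts beside the bHLH factor gene HAND2 of heart and neural crest, stood at 5.57, 5.47 and 5.64 CPM in the 3 parental and 0.425, 0.437 and 0.423 CPM in the 3 knockout libraries. HAND2 fell to nearly the same extent, with a log2 fold change of -3.63 (SE 0.063, adjusted p = 1.47e-22) by edgeR, beside -3.70 (SE 0.10) for HAND2-AS1. GATA2-AS1 stood at 12.5, 10.9 and 11.8 CPM in the 3 parental and 0.678, 0.658 and 0.639 CPM in the 3 knockout libraries and shares no exonic base with the haematopoietic factor gene GATA2, which fell, at a log2 fold change of -3.36 (SE 0.070, adjusted p = 4.2e-21). ZNF667-AS1, which shares a start region with a zinc-finger gene, had a log2 fold change of -4.23 (SE 0.086) against -2.84 for ZNF667. KBTBD11-AS1 had a log2 fold change of -3.78 (SE 0.11) against -2.77 for KBTBD11, a gene of the BTB and kelch family. In each of these 4 pairs the 2 genotypes did not overlap for either gene.

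KIF25-AS1 and L3MBTL2-AS1 were lost to a far greater extent than their sense genes. KIF25-AS1 stood at 10.9, 10.2 and 10.6 CPM in the 3 parental and 0.119, 0.106 and 0.109 CPM in the 3 knockout libraries, a log2 fold change of -6.58 (SE 0.11), while the kinesin gene KIF25 was at -2.43 (SE 0.17, adjusted p = 2.43e-11). L3MBTL2-AS1 stood at 29.2, 29.2 and 28.4 CPM in the 3 parental and 2.36, 2.15 and 2.18 CPM in the 3 knockout libraries. L3MBTL2, a Polycomb-family gene within whose span it lies, stood at 42.2, 39.7 and 39.2 CPM in the 3 parental and 38.5, 40.3 and 37.4 CPM in the 3 knockout libraries, and its groups overlapped. The log2 fold change of L3MBTL2 was -0.06 (SE 0.051, adjusted p = 0.30), and it passed the test only under total count (-0.48) and upper quartile scaling (-0.26). Of the exonic bases of L3MBTL2-AS1, 37.5% lie in exons of L3MBTL2.

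The 2 largest increases in the knockout libraries were those of the antisense RNAs of the cytokine gene LIF and the cell adhesion gene CDH13. LIF-AS2 (chr22:30246205-30246998, plus strand) stood at 0.0499, 0.0238 and 0.0426 CPM in the 3 parental and 8.79, 11.0 and 12.5 CPM in the 3 knockout libraries. LIF stood at 1.72, 1.75 and 1.59 CPM in the 3 parental and 296, 391 and 403 CPM in the 3 knockout libraries. The log2 fold changes were 8.10 (SE 0.22) and 7.75 (SE 0.18, adjusted p = 2.08e-07), and 175 of its 794 exonic bases were shared with LIF exons. CDH13-AS2 stood at 0.255, 0.332 and 0.260 CPM in the 3 parental and 72.4, 69.9 and 68.2 CPM in the 3 knockout libraries, a log2 fold change of 7.95 (SE 0.084) beside 7.55 (SE 0.098, adjusted p = 1.05e-16) for CDH13.

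ALDH1A3-AS1 stood at 0.562, 0.627 and 0.492 CPM in the 3 parental and 11.0, 11.0 and 10.5 CPM in the 3 knockout libraries. The log2 fold change of 4.27 (SE 0.093) stood beside 4.29 (SE 0.058, adjusted p = 1.65e-24) for ALDH1A3, an enzyme gene of retinoic acid synthesis. NR2F1-AS1 stood at 0.777, 0.872 and 1.03 CPM in the 3 parental and 23.2, 23.3 and 21.7 CPM in the 3 knockout libraries, and the nuclear receptor gene NR2F1 rose by a log2 fold change of 6.52 (SE 0.062, adjusted p = 8.48e-27) against 4.67 (SE 0.086) for its antisense RNA. TMEM51-AS1 (log2 4.84, SE 0.11) and SERTAD4-AS1 (log2 5.27, SE 0.082) were higher beside TMEM51 (log2 5.38) and SERTAD4 (log2 4.53). PSMB8-AS1 (log2 5.88, SE 0.11) lies beside PSMB8, the immunoproteasome subunit gene, which rose by a log2 fold change of 4.68. All of these sense genes passed the test.

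At lower size, WNT5A-AS1 stood at 3.46, 3.08 and 3.23 CPM in the 3 parental and 15.7, 14.6 and 14.3 CPM in the 3 knockout libraries, within the span of the WNT ligand gene WNT5A, which rose by a log2 fold change of 3.09 (SE 0.051, adjusted p = 6.21e-23). No exonic base is shared by this pair. IRF1-AS1 (log2 2.82, SE 0.079) and LOXL1-AS1 (log2 1.14, SE 0.051) were higher to a smaller extent than the interferon response factor gene IRF1 (log2 5.43) and the elastin crosslinking gene LOXL1 (log2 4.07). RASSF8-AS1 (log2 2.83, SE 0.081) was close to RASSF8 (log2 3.14), and PINK1-AS (log2 1.35, SE 0.075) to the mitochondrial kinase gene PINK1 (log2 1.56). Lower in the knockout cells, RARA-AS1 (log2 -1.34, SE 0.086) was close to the retinoic acid receptor gene RARA (log2 -1.56).

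Very low values in the genotype where a gene is lost need care. In each genotype, the 20 most strongly lost abundant genes kept a median of 0.617% (3990 genes abundant in parental libraries) and 0.586% (3251 genes abundant in knockout libraries) of their unscaled count in the other genotype. LIF-AS2, CDH13-AS2, FEZF1-AS1, KIF25-AS1, ALDH1L1-AS2 and ITGB2-AS1 kept no more than 2 times such a share, on the same unscaled counts. Whether their low level is RNA made there or a share carried over between libraries was not tested.

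Sense genes were not chosen by their own level, but their antisense RNAs were, and most pairs moved in the same direction. Of 136 sense genes 135 were tested: 69 rose and 52 fell, 14 did not reach the threshold, and the median log2 fold change was 0.17 against -0.06 for all tested genes. The share that passed was 89.6%, against the 73.8% of all genes. Nothing is read from this share or from the median, since the choice of antisense RNAs used the same libraries. The balance turned with the scaling, to 47 risen and 75 fallen under total count and 53 and 61 under upper quartile scaling. By size, 35 were above 1 and 25 under -1. TMEM202 was the 1 gene not tested.

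**Figure D2:**
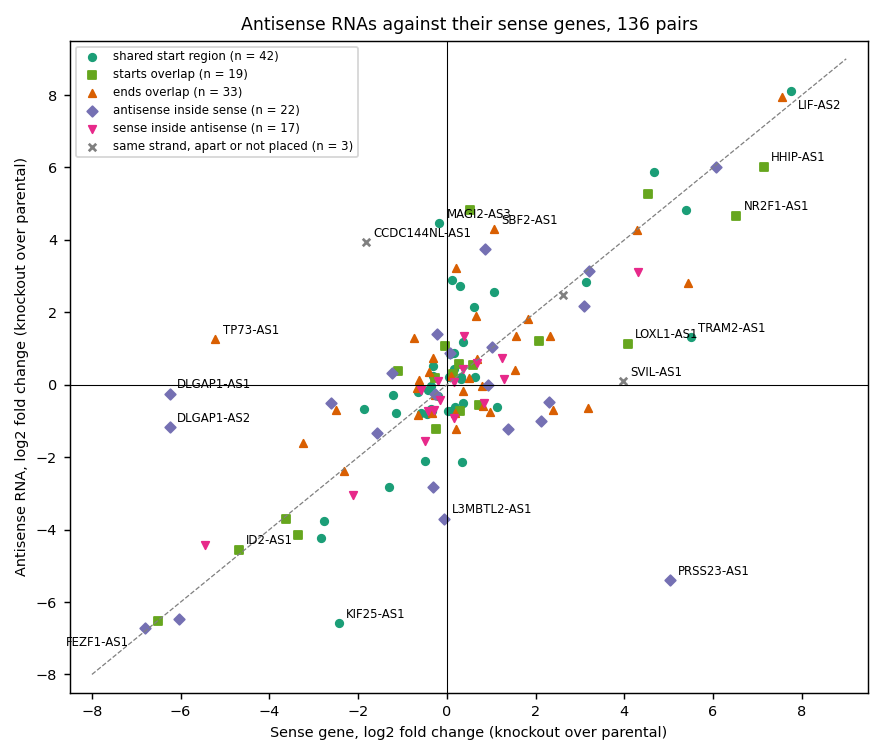
Log2 fold change of each antisense RNA (y axis) against that of its sense gene (x axis), knockout over parental, for the 136 pairs in which both were tested, coloured by how the 2 genes lie to each other. Most points lie along the diagonal in the lower left and upper right, and PRSS23-AS1 and TP73-AS1 lie far off it.

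In the 136 pairs with both genes tested, 54 were higher for both and 44 lower for both in the knockout libraries, so 98 (72.1%) moved in the same direction. In 15 the antisense RNA was higher and the sense gene lower, and in 23 it was the reverse. Among the 44 pairs in which both changed by more than 1, 40 had the same direction and 4 the opposite. In 20 pairs only the antisense RNA passed 1, in 17 only the sense gene, and in 55 neither. Over the 136 pairs Pearson's r was 0.70 and Spearman's rho 0.60, as a description: the points share the same 6 libraries, their scaling and, in many pairs, exonic bases. The median distance between the 2 log2 fold changes was 0.854, and 78 pairs lay within 1.

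How the 2 genes lie to each other was read from GENCODE for 135 pairs, and the counts that follow are of pairs with both genes tested. In 42 pairs the genes start within 1000 bases of each other on opposite strands; 33 of these moved in the same direction (r = 0.79). In 19 the spans overlap at their starts, with 14 in the same direction (r = 0.91). In 33 they overlap at their ends, with 20 in the same direction (r = 0.63). The antisense RNA lies inside the sense gene in 22 pairs, 15 of them in the same direction (r = 0.51), and the sense gene inside the antisense RNA in 17, 14 of them in the same direction (r = 0.92). In 1 further pair both genes are on the same strand. The classes hold few pairs, and no class was tested against another.

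Pairs with and without shared exonic bases were alike in direction and distance, and less so in correlation. Of the 112 tested pairs with shared exonic bases 81 moved in the same direction, 65 lay within 1 and the median distance was 0.837. Of the 22 pairs with none 16 moved in the same direction, 13 lay within 1 and the median distance was 0.857. Pearson's r was 0.81 with shared bases and 0.32 without, and Spearman's rho was 0.64 and 0.47. PRSS23-AS1, DLGAP1-AS1, DLGAP1-AS2 and TRAM2-AS1 are among the 22, and their part in the lower values was not tested. The part of shared reads in these values was not tested further. In 9 pairs at least 50% of the exonic length of the antisense RNA lies in exons of the sense gene, and 7 of them moved in the same direction. Among the other antisense RNAs described, the shared part of the exonic length was 42.9% for PINK1-AS, 40.0% for BACE1-AS, 38.6% for PXN-AS1, 37.5% for L3MBTL2-AS1, 34.2% for BAZ2B-AS1, 32.2% for SBF2-AS1, 31.7% for PSMB8-AS1, 31.1% for RARA-AS1, 29.5% for VPS9D1-AS1 and 28.9% for KCTD21-AS1. It was 26.0% for MELTF-AS1, 23.3% for ALDH1A3-AS1, 22.0% for LIF-AS2, 18.4% for FEZF1-AS1, 17.6% for IRF1-AS1, 17.3% for SERTAD4-AS1, 17.3% for MBNL1-AS1, 16.2% for BSG-AS1, 12.4% for ITGB2-AS1 and 11.4% for HHIP-AS1. The remaining placed antisense RNAs described by name share under 10% or no base.

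**Figure D3:**
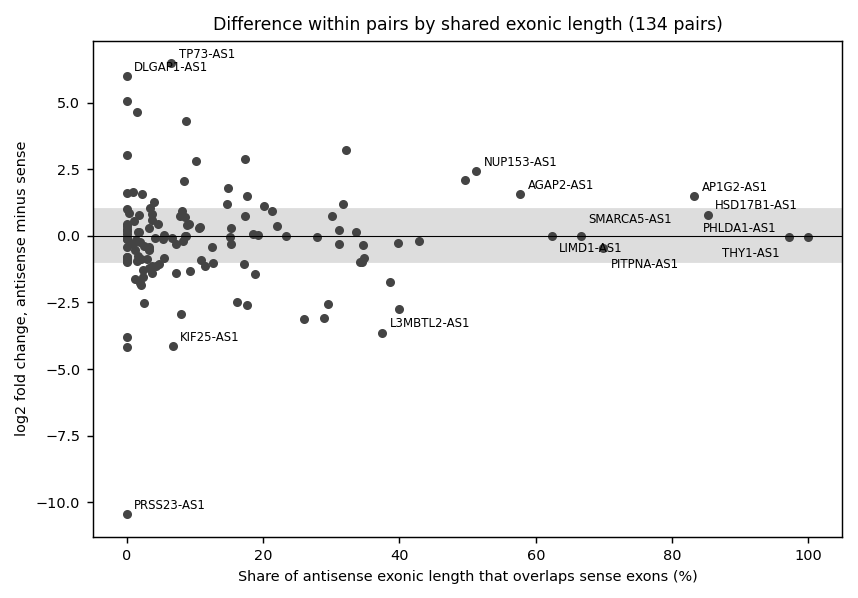
Difference between the antisense and the sense log2 fold change (y axis) against the percent of the antisense RNA's exonic length that lies in exons of its sense gene (x axis), 1 point a pair, with the grey band marking differences within 1. THY1-AS1 and PHLDA1-AS1, at 100% and 97.2%, lie close to 0, and AP1G2-AS1 and AGAP2-AS1 lie well above it.

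THY1-AS1 and PHLDA1-AS1 are nearly whole inside exons of their sense genes. THY1-AS1, opposite the surface glycoprotein gene THY1, stood at 8.66, 8.31 and 8.08 CPM in the 3 parental and 75.7, 71.1 and 74.1 CPM in the 3 knockout libraries. The THY1-AS1 counts were 15.7, 15.8 and 15.0% in parental and 15.2, 14.2 and 15.4% in knockout libraries of those of THY1, so that the ratio overlapped between the genotypes. PHLDA1-AS1 stood at 0.288, 0.276 and 0.247 CPM in the 3 parental and 18.0, 17.2 and 17.5 CPM in the 3 knockout libraries and at 2.98, 3.06 and 2.78% in parental and 2.89, 2.74 and 2.93% in knockout libraries of the counts of PHLDA1, a pleckstrin-homology domain gene. For both pairs the ratio of counts did not separate the genotypes although the levels did. LIMD1-AS1 (log2 1.81) and SMARCA5-AS1 (log2 -0.26), at 62.3% and 66.7% shared, also had log2 fold changes close to those of LIMD1 (log2 1.82) and SMARCA5 (log2 -0.27).

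The other 5 of the 9 pairs differed more. AGAP2-AS1, with 866 of its 1500 exonic bases in exons of AGAP2, stood at 24.8, 21.7 and 22.8 CPM in the 3 parental and 28.7, 29.5 and 28.6 CPM in the 3 knockout libraries, a log2 fold change of 0.32 (SE 0.055) that turned to -0.10 under total count scaling. AGAP2, which encodes a GTPase-activating protein, fell, at a log2 fold change of -1.23 (SE 0.062, adjusted p = 4.56e-14), and the ratio of counts was 121, 122 and 121% in parental and 363, 356 and 349% in knockout libraries. AP1G2-AS1 went from 6.23 ± 0.28 to 8.11 ± 2.5 CPM (mean ± SD, n = 3), with overlapping groups, and the AP1G2-AS1 log2 fold change of 0.38 (SE 0.27) turned to -0.04 under total count scaling. AP1G2, an adaptor complex subunit gene, had -1.10. NUP153-AS1 stood at a log2 fold change of 2.72 beside 0.30 for the nuclear pore gene NUP153, whose value turned to -0.12 under total count scaling. PITPNA-AS1 stood at a log2 fold change of -0.79 beside -0.34 for the lipid transfer gene PITPNA. HSD17B1-AS1 stood at a log2 fold change of 0.86, and HSD17B1, a steroid dehydrogenase gene with a close pseudogene, at 0.07 (SE 0.24, adjusted p = 0.81), with a sign that turned under total count and upper quartile scaling and without parental replicate 2, knockout replicate 2 or knockout replicate 3.

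The largest difference within a pair was at PRSS23. PRSS23-AS1 (chr11:86892214-86925037, minus strand) stood at 9.02, 10.3 and 9.64 CPM in the 3 parental and 0.188, 0.232 and 0.261 CPM in the 3 knockout libraries. PRSS23, a serine protease gene, stood at 5.62, 5.89 and 5.72 CPM in the 3 parental and 195, 189 and 182 CPM in the 3 knockout libraries. The log2 fold changes were -5.41 (SE 0.11) and 5.04 (SE 0.057, adjusted p = 8.75e-26), so that the antisense RNA was nearly lost where the sense gene was high. The 2 share no exonic base, and in GENCODE their starts are 133978 bases apart within a long PRSS23 span.

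TP73-AS1 and TP73 also parted. TP73-AS1 stood at 26.7, 24.6 and 25.4 CPM in the 3 parental and 57.1, 63.4 and 63.1 CPM in the 3 knockout libraries, and TP73, a gene of the p53 family, at 41.1, 35.7 and 37.2 CPM in the 3 parental and 0.960, 1.05 and 1.05 CPM in the 3 knockout libraries. The log2 fold change was 1.26 (SE 0.054) for TP73-AS1 and -5.22 (SE 0.075, adjusted p = 4.81e-24) for TP73. The 2 overlap at their ends and share 6.53% of the antisense exonic length.

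DLGAP1, a postsynaptic scaffold gene, is the 1 sense gene with 2 members. DLGAP1-AS1 stood at 5.25, 4.81 and 5.12 CPM in the 3 parental and 4.49, 4.31 and 3.99 CPM in the 3 knockout libraries and DLGAP1-AS2 at 13.8, 14.4 and 14.1 CPM in the 3 parental and 6.17, 6.06 and 6.54 CPM in the 3 knockout libraries. DLGAP1 itself stood at 125, 121 and 125 CPM in the 3 parental and 1.60, 1.73 and 1.58 CPM in the 3 knockout libraries, a log2 fold change of -6.24 (SE 0.064, adjusted p = 1.76e-26). Both antisense RNAs lie inside the DLGAP1 span with no shared exonic base, and their log2 fold changes were -0.25 and -1.17.

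Several antisense RNAs differed between the genotypes by far more than their sense gene. MAGI2-AS3 stood at 0.337, 0.327 and 0.251 CPM in the 3 parental and 6.91, 6.53 and 6.64 CPM in the 3 knockout libraries, and the scaffold gene MAGI2, with which it shares a start region, stood at 2.46, 2.47 and 2.72 CPM in the 3 parental and 2.39, 2.14 and 2.26 CPM in the 3 knockout libraries. The log2 fold change of MAGI2 was -0.17 (SE 0.099, adjusted p = 0.13); it passed the test, as lower, only under total count (-0.59) and upper quartile scaling (-0.37). ZNF295-AS1 stood at 0.508, 0.454 and 0.483 CPM in the 3 parental and 12.5, 14.1 and 14.5 CPM in the 3 knockout libraries, and its neighbour ZBTB21, a zinc-finger repressor gene, went from 21.6 ± 1.5 to 31.1 ± 1.6 CPM (mean ± SD, n = 3). ZBTB21 had a log2 fold change of 0.53 (SE 0.058, adjusted p = 3.77e-08) and did not pass under total count scaling (0.10, adjusted p = 0.12 by edgeR). SBF2-AS1 (log2 4.29, SE 0.058) and MBNL1-AS1 (log2 3.75, SE 0.094) were likewise far above SBF2 (log2 1.07), a myotubularin-family gene, and the splicing regulator gene MBNL1 (log2 0.86). On the lower side BASP1-AS1 (log2 -2.83, SE 0.096) stood beside -0.31 for BASP1 and ZBED3-AS1 (log2 -2.10, SE 0.094) beside -0.49 for ZBED3.

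In other pairs the sense gene rose while the antisense RNA changed little or was somewhat lower. SVIL-AS1 stood at 34.0, 34.1 and 34.3 CPM in the 3 parental and 37.1, 36.7 and 35.8 CPM in the 3 knockout libraries, a log2 fold change of 0.10 (SE 0.048) that turned to -0.33 under total count and -0.11 under upper quartile scaling. SVIL, the actin-binding supervillin gene, rose by a log2 fold change of 3.97 (SE 0.059, adjusted p = 8.91e-24). TRAF3IP2-AS1 (log2 -0.63, SE 0.068) stood beside 3.18 for TRAF3IP2, an adaptor gene of interleukin-17 signalling, and BACE1-AS (log2 -0.47, SE 0.070) beside 2.29 for the beta-secretase gene BACE1.

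Of the 38 pairs in opposite directions, 5 further ones of more modest size are described here. VPS9D1-AS1 stood at 14.7, 12.9 and 13.8 CPM in the 3 parental and 5.12, 6.24 and 6.54 CPM in the 3 knockout libraries, and VPS9D1 rose by a log2 fold change of 1.37. MELTF-AS1 stood at 5.44, 4.52 and 4.80 CPM in the 3 parental and 2.11, 2.57 and 2.76 CPM in the 3 knockout libraries, and MELTF, the melanotransferrin gene, rose by a log2 fold change of 2.12. KCTD21-AS1 had a log2 fold change of -0.70 (SE 0.078) against 2.39 for KCTD21, and PXN-AS1 one of -0.76 (SE 0.083) against 0.97 for the focal adhesion gene PXN. NOP14-AS1 went the other way, 1.30 (SE 0.060) against -0.75 for NOP14, a ribosome biogenesis gene. All 5 sense genes passed the test and, for each of these antisense RNAs, the genotypes did not overlap. CCDC144NL-AS1 stood at 0.545, 0.510 and 0.581 CPM in the 3 parental and 8.87, 8.14 and 8.12 CPM in the 3 knockout libraries, but CCDC144NL reached at most 0.0956 CPM and has close copies in the genome. The CCDC144NL log2 fold change of -1.83 (SE 0.60, adjusted p = 0.0127) did not pass without parental replicate 1 (adjusted p = 0.088 by edgeR) or parental replicate 2 (adjusted p = 0.056).

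**Figure D4:**
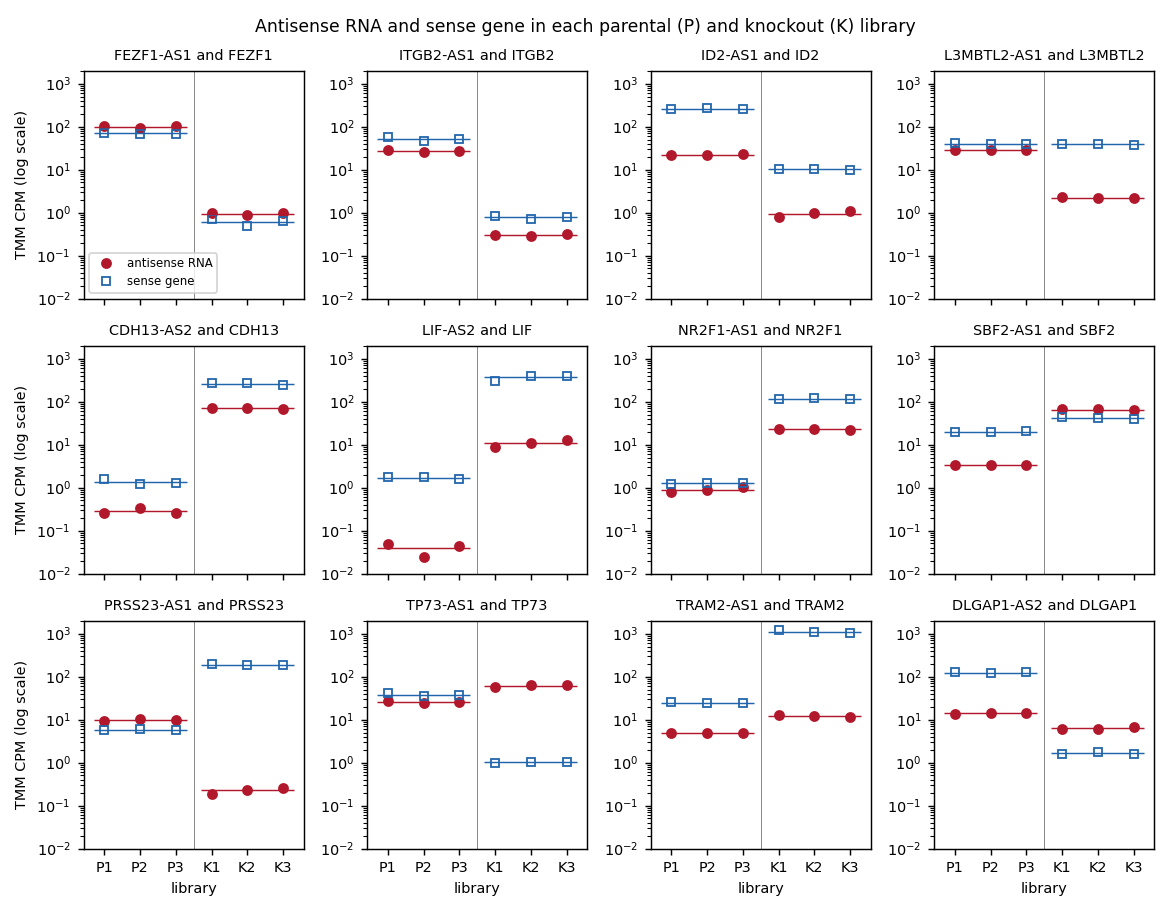
Level of selected antisense RNAs and their sense genes in each of the 6 libraries, in TMM-scaled CPM on a log axis, 1 point a library, with lines at the mean of each genotype. The 3 libraries of a genotype lie close together for each gene, and PRSS23-AS1 and TP73-AS1 run against their sense genes.

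The ratio of antisense to sense counts, compared only between the genotypes and never between genes of different length, could be given for 135 pairs. In 107 of these the ratios of the 2 genotypes did not overlap, where the levels of 76.7% of all tested genes did not, so nothing is read from this count.

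The remaining antisense RNAs among the most abundant differed in size and direction. OIP5-AS1, a conserved cytoplasmic RNA also known as cyrano, stood at 105, 115 and 115 CPM in the 3 parental and 111, 104 and 99.0 CPM in the 3 knockout libraries, and its groups overlapped. OIP5, a centromere protein gene, fell, at a log2 fold change of -0.67 (SE 0.060, adjusted p = 1.15e-09). FGD5-AS1 stood at 70.6, 75.2 and 74.1 CPM in the 3 parental and 126, 127 and 116 CPM in the 3 knockout libraries, while the endothelial gene FGD5 reached at most 0.0792 CPM. PAX8-AS1 stood at 30.4, 31.0 and 31.9 CPM in the 3 parental and 110.2, 118 and 121 CPM in the 3 knockout libraries and the thyroid and kidney factor gene PAX8 rose by a log2 fold change of 0.65 (SE 0.059, adjusted p = 1.49e-09). GABPB1-AS1 went from 51.5 ± 5.7 to 31.3 ± 1.8 CPM (mean ± SD, n = 3 each), beside a log2 fold change of -0.34 for GABPB1, a subunit gene of an ETS factor complex. PROSER2-AS1 went from 63.6 ± 3.2 to 20.7 ± 1.0 CPM, beside a log2 fold change of -3.25 for PROSER2. MSC-AS1 went from 29.6 ± 1.0 to 45.0 ± 1.7 CPM, beside a log2 fold change of 0.69 for the bHLH factor gene MSC. ARHGEF35-AS1 went from 43.4 ± 1.2 to 6.11 ± 0.32 CPM, beside a log2 fold change of -1.30 for ARHGEF35, whose counts are uncertain because of its near copy ARHGEF5. At a lower level, TRIM52-AS1 and TRIM52, which share a start region and no exonic base, had log2 fold changes of -0.78 and -1.14.

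Of 13 antisense rows of the HOX clusters, which hold the body axis transcription factor genes, 2 were members. HOXD-AS2 (chr2:176121611-176137098, minus strand) stood at 17.2, 16.3 and 16.2 CPM in the 3 parental and 6.87, 7.54 and 7.99 CPM in the 3 knockout libraries, and its neighbours HOXD8 and HOXD9 fell, with log2 fold changes of -2.08 (SE 0.050, adjusted p = 5.93e-20) and -1.64 (SE 0.061, adjusted p = 2.25e-15) by edgeR. HOXB-AS1 (chr17:48543551-48551250, plus strand) stood at 7.22, 7.01 and 6.67 CPM in the 3 parental and 4.10, 5.34 and 5.64 CPM in the 3 knockout libraries, with a log2 fold change of -0.47 (SE 0.099). Its neighbours HOXB2 and HOXB3 rose, with 0.22 (SE 0.051, adjusted p = 0.000479) and 0.52 (SE 0.051, adjusted p = 5.24e-09). Neither rise held under total count scaling, where HOXB2 fell (-0.20) and HOXB3 did not pass (0.10).

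The genes that degrade or end antisense transcripts were given as a list of 51. All were tested, 37 fell and 5 rose, 9 did not reach the threshold, and the median was -0.40. The share that passed was 82.4%, against 73.8% of all genes. Of all tested genes 37.5% fell and 36.3% rose. Of the 13 exosome genes, whose complex degrades nuclear RNA from its 3′ end, 12 fell and EXOSC3 did not pass, at 0.07 (SE 0.054, adjusted p = 0.27), but fell under total count (-0.36) and upper quartile scaling (-0.14). EXOSC5 stood at 28.0, 25.1 and 25.1 CPM in the 3 parental and 7.13, 7.52 and 7.31 CPM in the 3 knockout libraries, and its log2 fold change was -1.83 (SE 0.060, adjusted p = 1.9e-17). EXOSC7 had a log2 fold change of -1.50 (SE 0.052, adjusted p = 5.51e-17) and EXOSC2 -1.32 (SE 0.052, adjusted p = 5.03e-16). Among the adaptors that bring RNA to the exosome, 5 of 6 fell, with the helicase gene MTREX at -1.06 (SE 0.052, adjusted p = 3.63e-14), and RBM7 rose, with 1.42 (SE 0.055, adjusted p = 3.98e-16). Of 15 Integrator genes, which end short transcripts, 8 fell and 3 rose, and of 12 polyadenylation and termination genes 9 fell. Under total count scaling 47 of the 51 fell and 2 rose, where 14949 of all 28485 tested genes fell and 7370 rose.

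**Figure D5:**
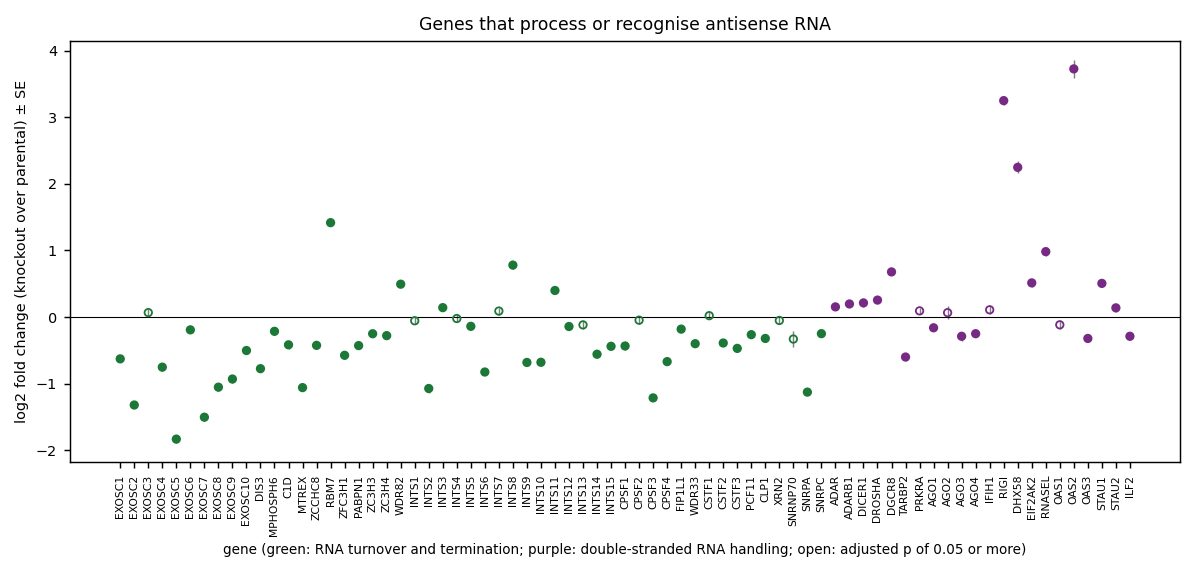
Log2 fold change, knockout over parental, (y axis) of genes of the RNA turnover and double-stranded RNA lists (x axis), ordered by complex, with bars for 1 SE and open points for genes that did not pass the test. The exosome genes lie mostly below 0, RBM7 lies above 1, and RIGI, DHX58 and OAS2 are the 3 highest of the double-stranded RNA genes.

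Paired sense and antisense RNA can be bound by proteins that sense or edit double-stranded RNA. Of 23 such genes 12 rose, 7 fell and 4 did not pass (82.6% passed, against 73.8% of all genes), but under total count scaling 6 rose and 16 fell, so the balance rested on the scaling. The highest were genes of sensors of viral RNA. RIGI stood at 4.11, 4.93 and 4.04 CPM in the 3 parental and 41.9, 42.4 and 39.9 CPM in the 3 knockout libraries, a log2 fold change of 3.25 (SE 0.071, adjusted p = 1.79e-18). DHX58 stood at a log2 fold change of 2.25 (SE 0.089, adjusted p = 5.88e-16) and OAS2, which stood at 0.232, 0.220 and 0.204 CPM in the 3 parental and 3.10, 2.87 and 2.69 CPM in the 3 knockout libraries, at 3.72 (SE 0.13, adjusted p = 1.15e-16). Not all sensors rose: OAS3 fell, at -0.32 (SE 0.047, adjusted p = 2.43e-06). IFIH1 was at a log2 fold change of 0.11 (SE 0.059, adjusted p = 0.10), fell under total count scaling (-0.32), and passed as higher with DESeq2 size factors (0.14) and without parental replicate 2 or knockout replicate 3. The editing enzyme gene ADAR rose, at 0.15 (SE 0.052, adjusted p = 0.0112), but fell under total count scaling (-0.27), turned to -0.051 under upper quartile scaling and did not pass without knockout replicate 1 (0.11, adjusted p = 0.058 by edgeR).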

How the data were processed

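Poly(A)-enriched RNA of 3 parental and 3 EWS-FLI1 knockout samples of A673 was sequenced on an Illumina instrument, per the labels' protocols. The authors deposited 1 table of estimated counts per gene, of which 53.35 to 56.57% per library are whole numbers (within 1e-06); the notes of the submitters name kallisto 0.48.0 and hg38, while the sources used here do not name the strand setting, the annotation release or any filter. Rows that share exons on opposite strands may share reads.

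The counts were rounded and fitted with edgeR 4.0.16 in R 4.3.3 (TMM factors, filterByExpr with a count minimum of 10, robust quasi-likelihood test), and 28485 genes were tested. Levels are TMM-scaled CPM, while membership used unscaled CPM of 5 or more. SEs are the absolute log2 fold change over the root of the F statistic. The fit was run on simulated data in which few genes changed, in equal numbers up and down. That run cannot test the scaling of these libraries, where most genes differed. Depth was 301605666 to 342624492 counts a library, and 3 counts correspond to 0.00752 to 0.0117 CPM. Replicates differed by more than sampling noise (chi-square per degree of freedom 11.15 to 78.11). Replicate 1 stood apart in both genotypes. In parental libraries it gave 47.75 and 31.43 against replicates 2 and 3, which gave 11.15 between them. In knockout libraries it gave 63.11 and 78.11, and replicates 2 and 3 gave 18.16 between them. Same-numbered libraries did not deviate together (r -0.0196 to -0.00546), so no pairing was used.

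Members, gene lists and tests were chosen with earlier results of these data known. Genes named are the 12 largest positive and negative differences, the 8 most abundant in each genotype, the 8 opposite pairs in which the smaller of the 2 absolute log2 fold changes is largest, the 8 pairs with the largest difference, HOX members, rows next to the limit of 5 CPM, the sense gene with 2 members, and 4 genes of each list. AGAP2-AS1, AP1G2-AS1, BACE1-AS, BASP1-AS1, BAZ2B-AS1, BSG-AS1, HSD17B1-AS1, IRF1-AS1, LIMD1-AS1, LOXL1-AS1, MBNL1-AS1, NUP153-AS1, PINK1-AS, PITPNA-AS1, RARA-AS1, RASSF8-AS1, SMARCA5-AS1, TRAF3IP2-AS1, TRIM52-AS1, WNT5A-AS1 and ZBED3-AS1 fall outside that rule and were named after their values were seen, as were PRKCB, PECAM1, PTPRC, EXOSC3, MTREX, ADAR, IFIH1, OAS3, HOXB2, HOXB3, HOXD8 and HOXD9, the match of ZNF295-AS1 to ZBTB21 and the promoters shown. Coordinates and exons came from GENCODE release 29 (GRCh38), matched by gene ID without version for 139 of 140 members; SVIL-AS1 was not matched. Alternatives were other scalings, no filter, DESeq2 1.42.0, a replicate block, each library left out and other member limits. A few genes counted in the lists are not reported here by name.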

Additional observations from a re-analysis of the deposited data

How the results depend on the processing

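The DESeq2 Wald test and no filter kept the direction and the side of the threshold of the named genes that were refitted, and DESeq2 size factors did so except for IFIH1 (0.14, adjusted p = 0.046 by edgeR). Total count scaling moved the members under -1 to 50, and turned ADAR (-0.27), AGAP2-AS1 (-0.10), AP1G2-AS1 (a log2 fold change of -0.04), BSG (-0.072), EXOSC3 (-0.36), FLI1 (-0.040), HOXB2 (-0.20), HSD17B1 (-0.35), IFIH1 (-0.32), NUP153 (-0.12), PSMG3-AS1 (-0.12), SVIL-AS1 (-0.33) and UGDH-AS1 (-0.22). It left 2 RNA turnover genes risen, and 6 double-stranded RNA genes risen and 16 fallen. Upper quartile scaling left 7 double-stranded RNA genes risen and turned ADAR (-0.051), EXOSC3 (-0.14), HSD17B1 (-0.13), IFIH1 (-0.095), SVIL-AS1 (-0.11) and UGDH-AS1 (-0.000931), and NUP153 (0.0999, adjusted p = 0.058 by edgeR) and HOXB2 (0.021) no longer passed. Without 1 library, HSD17B1 ranged from -0.0715 to 0.36, with -0.0486 without knockout replicate 2 and -0.00297 without knockout replicate 3. Fewer members gave smaller counts: with members of 10 CPM or more, 33 sense genes rose, 30 fell, 19 antisense RNAs were above 1, and 53 pairs had the same and 17 the opposite direction. With members of 5 CPM or more in both genotypes, 27 sense genes rose, 23 fell, 11 antisense RNAs were above 1, 5 were under -1, and 40 pairs had the same and 18 the opposite direction.

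The replicate numbers only name the libraries. With the replicate block, 68 sense genes rose and 51 fell, 98 pairs had the same and 38 the opposite direction, and over all genes, knockout vs parental, 10041 rose and 10377 fell, against 10328 and 10687 without it. The block left 11 double-stranded RNA genes risen, against 12, and changed no call among the named genes refitted with it. Depth limits genes near 0, such as CCDC144NL.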

Other observations

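Other rows named for a gene beside them were paired in the same way as the members, of which 98 of 136 pairs moved in the same direction. Among 981 pairs of tested -AS rows that did not reach 5 CPM, 694 moved in the same direction as the gene named before the suffix. Of 480 pairs with a -DT row, a divergent transcript, 324 moved in the same direction, of 51 with an intronic -IT row 31, and of 11 with an overlapping -OT row 7. Neither these sets nor the members were tested against each other. Within the 140 members, the 29 that reached 5 CPM in the knockout libraries only had 26 of 29 pairs in the same direction, against 32 of 49 for those through the parental libraries only and 40 of 58 for those through both; the rule itself sets the direction of the antisense RNA, on unscaled CPM, in the first and second of these.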
